A study of Homo sapiens with 9 samples.

Results

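The TSC22 domain family comprises the 4 genes TSC22D1, TSC22D2, TSC22D3 and TSC22D4, which were taken by name from expression tables of 78894 genes. All 4 were among the 16908 genes that passed the filter on low counts. The family was chosen by the levels of TSC22D3 in these libraries, which had been seen to differ between cells carrying R227Q and H448L SARS2, so the levels of TSC22D3, and all direct differences between those variants in the family, are given as descriptions without a test.

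Messenger RNA was sequenced in Hap1, a cultured human line with a near-haploid genome that goes back to chronic myeloid leukaemia cells. All groups carried a deletion of the endogenous SARS2 gene, which encodes mitochondrial seryl-tRNA synthetase, and an inducible 1xFLAG-tagged SARS2 copy that was left off by omitting doxycycline for 6 days. The groups differed in the constitutively expressed myc-tagged copy, labelled SARS2+int14-myc, which was wild type (WT), R227Q or H448L, with 3 libraries each. Nothing in the labels says how many clones stood behind a genotype, or whether the libraries of a group were separate cultures, so the p-values rest on the variation from library to library, which may be technical.

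TSC22 domain proteins share a conserved TSC box followed by a leucine zipper, through which they form dimers with one another and bind other proteins. TSC22D3, also called GILZ, is a classical target of the glucocorticoid receptor and of FOXO transcription factors, and its protein restrains NF-kappaB, AP-1 and Ras signalling. TSC22D1 was found as a TGF-beta-induced gene, and family members bind the pseudokinase NRBP1 and act with WNK kinases in the control of cell volume. TSC22D1, TSC22D2 and TSC22D3 have long and short isoforms made from separate starts, which counts per gene do not tell apart.

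The libraries came from 2 submissions to the sequencing service, of which SDKYMR held 3 libraries (R227Q 1, WT 1 and WT 2) and 4LJFHN the remaining 6, among them all H448L libraries. A library had between 9900892 and 12991050 counts in total, and levels are given as counts per 1000000 (CPM), so that 1 count stood for 0.0770 to 0.101 CPM. Family members had 172.5 to 1146.5 counts per library. Of all genes tested, 43.8% differed between submissions (edgeR adjusted p under 0.05), and every fitted comparison carried a submission term. SARS2 itself was counted at 6.20 to 8.68 CPM, from which the deleted, inducible and constitutive copies cannot be told apart, and its exons overlap those of MRPS12 and AC011455.2. Of the markers of other cell types, 5 of 6 haematopoietic ones (PTPRC, CD34, SPI1, GATA1 and CD33) stayed under 1 CPM in every library. So did 3 of 6 epithelial and 3 of 6 fibroblast markers, and 1 of 6 neuronal or embryonic kidney markers. The summed levels of the 4 marker lists overlapped between WT and R227Q for the haematopoietic (1.48 to 17.2 against 1.63 to 16.6 CPM) and fibroblast (18.9 to 54.0 against 23.7 to 66.4 CPM) lists. They did not overlap for the epithelial list (78.1 to 81.7 in WT, 84.8 to 92.5 CPM in R227Q) or the neuronal and kidney list (176.0 to 181.1 and 159.7 to 174.1 CPM), and the part of this in the family's differences was not tested. In H448L the sums were 15.5 to 21.3, 55.7 to 67.7, 79.4 to 89.9 and 161.4 to 171.7 CPM in the same order. The higher haematopoietic sums come mostly from HBG1, the 1 marker of that list not under 1 CPM throughout. These sums are not adjusted for submission. WT and R227Q span both submissions and H448L lies in 4LJFHN alone, so group and submission cannot be told apart in them.

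TSC22D3 lies on chromosome X (GRCh38, 107713221 to 107777342, minus strand), and RefSeq promoter windows, each from 250 bases before to 50 after a start, were matched for 3 of the 4 members, TSC22D1 (5 windows), TSC22D3 (4) and TSC22D4 (1). The stretch below is shown because it holds the single match of the family's 10 windows to the forkhead core GTAAACA, the letters that FOXO factors recognise. It ends at the base before the first annotated start in its window, reads 5′ to 3′ on the minus strand of chrX:107717136-107717312 (RefSeq, GRCh38.p14), and has the match in capitals, as the reverse complement TGTTTAC.

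TSC22D3: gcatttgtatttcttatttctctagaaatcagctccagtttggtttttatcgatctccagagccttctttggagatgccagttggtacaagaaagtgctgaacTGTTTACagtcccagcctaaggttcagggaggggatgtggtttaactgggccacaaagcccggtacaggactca

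The match covers bases 104 to 110 of the stretch. Its first base lies 147 bases before the start that defines its RefSeq window. Between its last base and an earlier start in the GENCODE models, at 107717135, before which the printed stretch stops, lie 67 bases. GTAAACA on either strand was present in 3.42% of all 34943 promoter windows. The palindromic glucocorticoid response element (AGAACA and its reverse complement, 3 bases apart) was in 0 of the 10 family windows and in 0.00286% of all windows. The half-site AGAACA alone, on either strand and also where it lies in the palindrome, was in 1 family window, of TSC22D1, and in 14.8% of all windows. The C/EBP-ATF core TGATGNAA (3.62% of all windows, both strands) and the cyclic AMP element TGACGTCA (1.84%) were in 0 family windows. These are letter matches in short windows and say nothing of binding.

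TSC22D3 was highest in R227Q cells, intermediate in H448L cells and lowest in WT cells. It was measured at 54.4 CPM in WT 1, 56.5 in WT 2 and 62.1 in WT 3. The R227Q libraries 1 to 3 held 76.0, 88.5 and 92.8 CPM, and the H448L libraries 1 to 3 73.4, 75.2 and 68.1 CPM. No R227Q or H448L library overlapped the WT libraries, and the lowest R227Q library, R227Q 1 of submission SDKYMR, lay just above the highest H448L library. How many of all genes had groups without overlap was not counted, here or for the genes below. The means were 57.7 ± 3.94 CPM in WT, 85.8 ± 8.75 in R227Q and 72.2 ± 3.71 in H448L (± SD, n = 3 each). In bulk RNA, a change of RNA per cell and a change in the number of cells that express a gene cannot be told apart.

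The fitted TSC22D3 level in R227Q was 1.40-fold that of WT (log2 fold change 0.49 ± 0.05, SE, 3 libraries per group), with log2 CPM differences of 0.44 within SDKYMR and 0.54 within 4LJFHN. In H448L it was 1.12-fold that of WT (0.16 ± 0.06, and 0.20 within 4LJFHN, the sole submission with H448L libraries). The H448L level was 1.25-fold lower than that of R227Q (−0.33 ± 0.05), with −0.34 within 4LJFHN, where the 2 R227Q and 3 H448L libraries did not overlap. This last difference is the one that drew attention to the gene. Leaving out any 1 of the 9 libraries gave 0.44 to 0.54 for R227Q against WT, 0.10 to 0.21 for H448L against WT and −0.35 to −0.28 for H448L against R227Q. The H448L value against WT was the one that shifted by over 1.5 times, to 0.10 when WT 3 was left out, which leaves 4LJFHN with no WT library, and to 0.27 without the submission term. Exons of TSC22D3 share 71 bases with NCBP2L on the opposite strand.

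**Figure D1:**
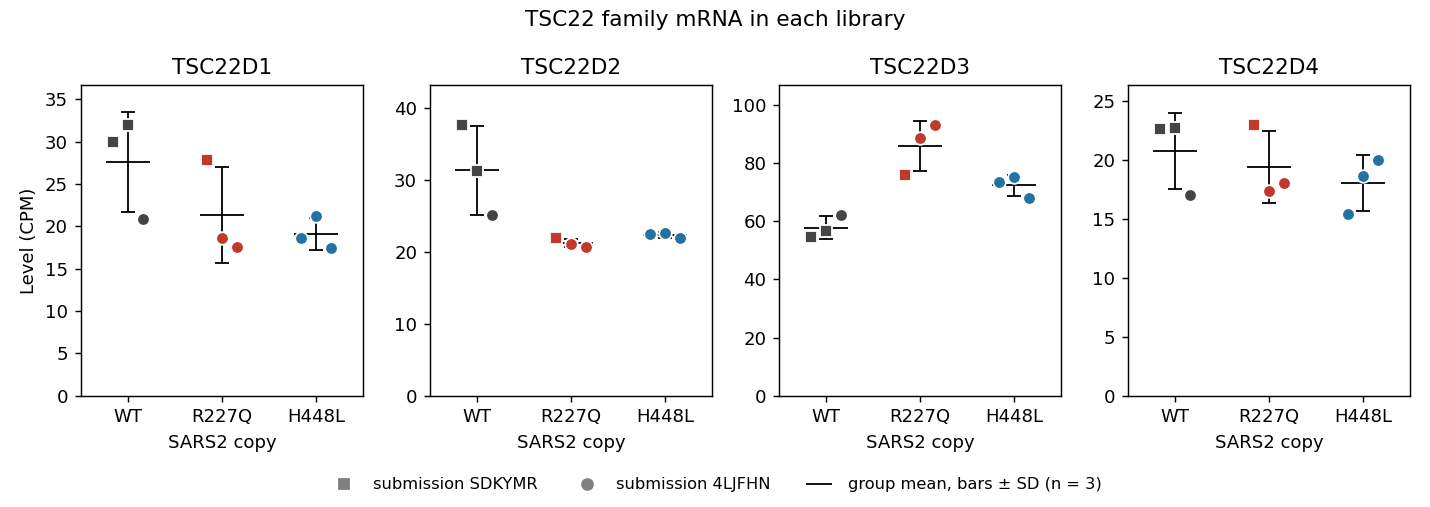
Level of each TSC22 family gene in CPM (y axes, from 0, one panel per gene) in the 3 libraries of each SARS2 group (x axes); squares are submission SDKYMR, circles 4LJFHN, and bars the group mean ± SD. TSC22D3 runs from 54.4 to 62.1 CPM in WT and from 76.0 to 92.8 in R227Q, while TSC22D2 is at 25.1 CPM or more in WT and at 22.6 CPM or less in both variants.

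TSC22D2, a family member linked to osmotic stress, was lower in R227Q cells than in WT cells. It was measured at 37.6 CPM in WT 1, 31.2 in WT 2 and 25.1 in WT 3. In R227Q 1 to 3 it stood at 21.9, 21.0 and 20.7 CPM, and in H448L 1 to 3 at 22.5, 22.6 and 21.9 CPM. All 6 variant libraries lay below all 3 WT libraries, which were themselves widely spread, with WT 1 highest and WT 3 lowest. This pools the submissions. WT 1, WT 2 and R227Q 1 were in SDKYMR, and TSC22D2 was lower in 4LJFHN (−0.33 ± 0.09 on the log2 scale). TSC22D2 lies on chromosome 3 (150408335 to 150466431, plus strand), and its exons overlap no other annotated gene.

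The R227Q value was −0.48 ± 0.09 on the log2 scale, a 1.40-fold fall that passed edgeR's quasi-likelihood test (Benjamini-Hochberg adjusted p = 0.000163 over all genes tested). The log2 CPM difference was −0.66 within SDKYMR and −0.28 within 4LJFHN. The call was lost without R227Q 1 (−0.28), within 4LJFHN alone (−0.28) and without the submission term (−0.59, edgeR adjusted p = 0.0615). Without R227Q 1, SDKYMR holds WT libraries alone, so the variants are then compared with WT 3 alone, as within 4LJFHN. In H448L the value was −0.32 ± 0.10, which narrowly missed the threshold (edgeR adjusted p = 0.0514), with −0.19 within 4LJFHN. It crossed the threshold without WT 2 (−0.35, 0.0358) or WT 3 (−0.58, 0.0392), whereas it was −0.19 without R227Q 1. H448L stood 0.16 ± 0.09 above R227Q on the log2 scale, given without a test. That difference was 0.08 without WT 3 and 0.09 without R227Q 1.

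TSC22D1 (chromosome 13, 44432143 to 44577147, minus strand) separated by submission more than by SARS2 copy. It was measured at 30.0 CPM in WT 1, 31.9 in WT 2 and 20.9 in WT 3. The R227Q libraries 1 to 3 held 27.9, 18.6 and 17.6 CPM, and the H448L libraries 1 to 3 18.6, 21.2 and 17.5 CPM. The 3 SDKYMR libraries were the highest of the 9, and the groups overlapped. The log2 fold change was −0.19 ± 0.08 in R227Q and −0.13 ± 0.10 in H448L, which did not reach the threshold (edgeR adjusted p = 0.102 and 0.501). Without the submission term the values were −0.40 and −0.59 and did not pass either. The R227Q libraries lay below the WT libraries within each submission (−0.16 in SDKYMR and −0.21 in 4LJFHN). The H448L value was −0.07 without H448L 3 and −0.21 without H448L 2. H448L differed from R227Q by 0.06 ± 0.09, and by −0.02 without H448L 2. TSC22D1-AS1, an antisense transcript, had 2 to 10 counts per library and shares 469 exon bases with TSC22D1. AL138960.2 (535 bases) and AL139184.1 (117) are also antisense to it, so its counts are uncertain where strand was not used.

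TSC22D4, a member studied for its role in liver lipid metabolism (chromosome 7, 100463359 to 100479279, minus strand), showed no difference that passed the test. It was measured at 22.6 CPM in WT 1, 22.6 in WT 2 and 17.0 in WT 3. In R227Q 1 to 3 it stood at 22.9, 17.3 and 18.0 CPM, and in H448L 1 to 3 at 15.4, 18.6 and 20.0 CPM. As for TSC22D1, the 3 SDKYMR libraries were the highest. The log2 fold change was 0.02 ± 0.09 in R227Q and 0.04 ± 0.11 in H448L (edgeR adjusted p = 0.904 and 0.888). The H448L value ran from −0.04 without H448L 3 to 0.14 without H448L 1, and H448L differed from R227Q by 0.02 ± 0.09, or from −0.06 to 0.11 without those libraries. Without the submission term the values against WT turned to −0.13 and −0.27. TSC22D4 shares 391 exon bases with C7orf61 on its own strand, so reads there could be divided between them.

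Of the 3 members that the choice of the family did not rest on, 1 fell and 2 did not pass in R227Q, where 17.4% of all 16908 genes tested were called (7.5% higher and 9.91% lower). The R227Q and H448L comparisons share the WT libraries. In H448L, 0 of 3 passed by edgeR, against 7.97% of all genes tested (2.97% higher and 4.99% lower). TSC22D2 was below an unadjusted p of 0.05 there (1 of 3, beside 3634 of all 16908 genes). DESeq2 called 0 and limma-voom 1 of the 3, and 694 and 1410 of all genes. In H448L against R227Q, the contrast behind the choice of TSC22D3, 0.207% of all genes were called (0.0828% higher and 0.124% lower).

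**Figure D2:**
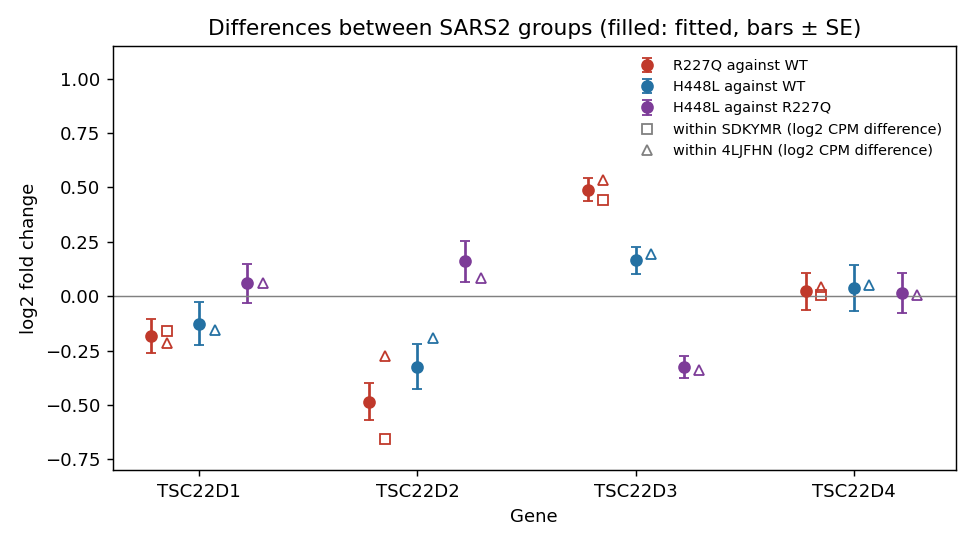
Log2 fold change (y axis) of the 4 genes (x axis) in the 3 comparisons, with filled circles for fitted values ± SE and open symbols for log2 CPM differences within each submission. TSC22D3 stands at 0.49 in R227Q against WT and TSC22D2 at −0.48, and the TSC22D2 values of the 2 submissions (−0.66 and −0.28) lie apart.

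The 3 tested members also differed between submissions. In 4LJFHN relative to SDKYMR, TSC22D1 was lower by a log2 value of −0.65 ± 0.08, TSC22D4 by −0.44 ± 0.09 and TSC22D2 by −0.33 ± 0.09 (edgeR adjusted p = 6.58e-08, 0.000109 and 0.00272). TSC22D3 stood 0.16 ± 0.05 higher there, given without a test. For TSC22D1 and TSC22D4 the submission difference was larger than that of either variant against WT.

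The makeup of the family's counts differed between the groups and between the submissions. TSC22D3, whose levels chose the family, held the largest share, so a difference between the groups was built in by that choice. TSC22D3 took 37.6%, 39.7% and 49.6% of the 4 genes' counts in WT 1 to 3, 51.1%, 60.8% and 62.3% in R227Q 1 to 3, and 56.5%, 54.6% and 53.4% in H448L 1 to 3. Each WT library thus lay below every variant library, while R227Q and H448L overlapped. Within 4LJFHN alone WT 3 was at 49.6%, the H448L libraries were at 53.4% to 56.5% and the R227Q libraries at 60.8% and 62.3%. The TSC22D2 share was largest in WT, at 22.7% ± 3.0, against 14.4% ± 0.4 in R227Q and 17.0% ± 0.5 in H448L (SD, n = 3). The summed level of the family was 137.3 ± 10.7 CPM in WT, 147.8 ± 1.9 in R227Q and 131.7 ± 5.4 in H448L. These shares follow from the levels above, are not scaled for transcript length, and were not tested.

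**Figure D3:**
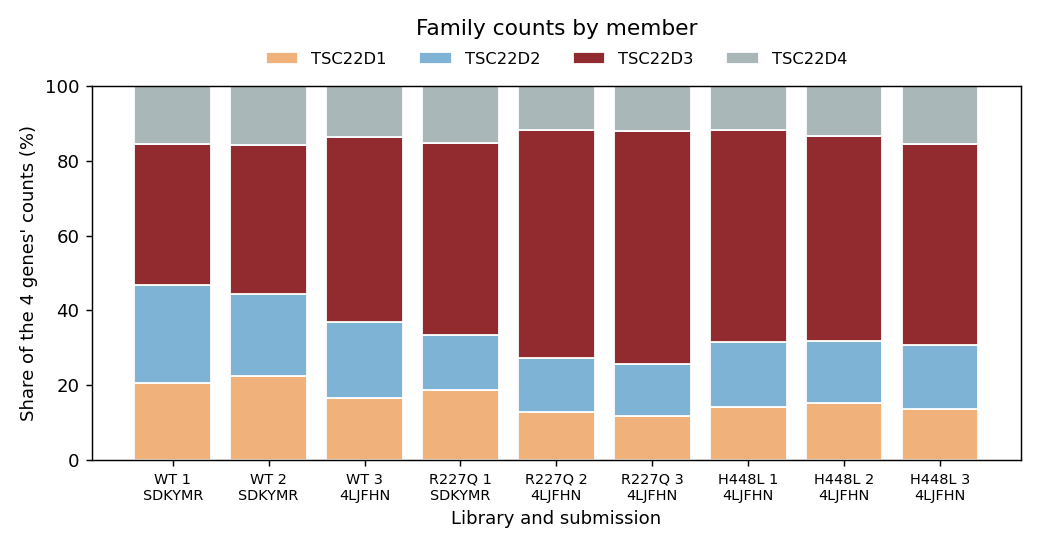
Share of the 4 genes' summed counts taken by each gene (y axis, percent, from 0) in the 9 libraries (x axis, with submission). The TSC22D3 share runs from 37.6% in WT 1 to 62.3% in R227Q 3, and the TSC22D2 share is smallest in the R227Q libraries.

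Partners of the family in cell-volume control were examined next, in a list of NRBP pseudokinases, WNK kinases, their effector kinases and the SLC12 chloride cotransporters. Of 17 members, 14 passed the filter on low counts. In R227Q, 2 rose, 1 fell and 11 did not pass (21.4% called against 17.4% of all genes, median log2 fold change 0.00, the same as over all genes). OXSR1, the kinase that relays WNK signals to the cotransporters, was measured at 113.1 CPM in WT 1, 115.6 in WT 2 and 118.6 in WT 3. The R227Q libraries 1 to 3 held 86.1, 101.2 and 102.8 CPM, and the H448L libraries 1 to 3 101.1, 102.2 and 89.5 CPM. Every variant library lay below every WT library. OXSR1 fell in both variants, with log2 values of −0.32 ± 0.05 in R227Q and −0.36 ± 0.06 in H448L (edgeR adjusted p = 7.52e-05 and 0.000292). The R227Q call was lost without R227Q 1 (−0.23) and within 4LJFHN alone (−0.23), both of which compare R227Q with WT 3 alone. Without the submission term, CEBPB in R227Q was the 1 call left in the 5 lists described here and below. That fit called few genes at all, 312 in R227Q and 147 in H448L of 16908 tested. Whether the lists differed from other genes in this was not tested.

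NRBP2, a pseudokinase related to NRBP1, rose in R227Q by 0.47 ± 0.12 on the log2 scale, which holds for all differences that follow (edgeR adjusted p = 0.00523), with 7.27 to 8.73 CPM in WT and 10.3 to 13.1 CPM in R227Q. Its exons share bases with 3 other annotated genes, and it was no longer called without WT 3 (0.39) or with DESeq2 (0.46). Its H448L value of 0.33 ± 0.14 (edgeR adjusted p = 0.137) passed without H448L 3 (0.43). KLHL3, the adaptor that marks WNK kinases for degradation, rose by 0.81 ± 0.26 (0.0265) from 0.77 to 1.54 CPM in WT to 1.79 to 3.08 CPM in R227Q. KLHL3 was no longer called with any 1 of WT 1 (0.68), WT 3 (0.76), R227Q 1 (0.85) and R227Q 3 (0.72) left out. NRBP1 itself (0.05 ± 0.05), WNK1 (−0.01 ± 0.05), STK39, the kinase related to OXSR1 (−0.12 ± 0.08), and SLC12A2, the sodium-potassium-chloride cotransporter (0.17 ± 0.08), did not pass in R227Q (edgeR adjusted p = 0.587, 0.902, 0.35 and 0.15). SLC12A2 passed without R227Q 2 (0.23) and stood at 0.07 without R227Q 1. WNK1 ran from −0.08 to 0.05 with 1 library left out.

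In H448L, 2 of the 14 fell, 0 rose and 12 did not pass (14.3% called against 7.97% of all genes, median 0.03 against 0.01). Besides OXSR1, WNK3, a kinase of the pathway, was lower, with 13.1 to 15.7 CPM in H448L against 15.8 to 17.5 CPM in WT (log2 value −0.39 ± 0.11, edgeR adjusted p = 0.0231). It did not pass with WT 3 (−0.55), R227Q 1 (−0.32), H448L 1 (−0.38) or H448L 3 (−0.33) left out, nor by DESeq2 (−0.40, adjusted p = 0.118). KLHL3 had about the same value as in R227Q (0.82 ± 0.28) but did not pass (0.0721). NRBP1 stood at −0.05 ± 0.06, WNK1 at 0.13 ± 0.06, STK39 at 0.03 ± 0.10 and SLC12A2 at 0.03 ± 0.10. The last of these turned to −0.04 without R227Q 1 and −0.03 without R227Q 2, and STK39 to −0.02 without H448L 3.

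The glucocorticoid list held the receptor, enzymes that set local glucocorticoid levels, and genes the receptor induces, and 18 of its 24 members passed the filter on low counts. The glucocorticoid receptor gene NR3C1 had few counts, at 0.81 to 1.39 CPM in WT, 1.24 to 1.71 CPM in R227Q and 0.81 to 1.66 CPM in H448L, with values of 0.52 ± 0.30 and 0.40 ± 0.38 against WT that did not pass (edgeR adjusted p = 0.277 and 0.624). The H448L value was 0.04 without H448L 2. In R227Q, 3 members rose, 1 fell and 14 did not pass (22.2% called against 17.4% of all genes, median 0.02). In H448L, 1 rose, 0 fell and 17 did not pass (5.56% against 7.97%, median −0.08 against 0.01 over all genes).

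Among standard targets of the receptor, FKBP5, a cochaperone that limits the receptor, stood at 0.00 ± 0.05 in R227Q and −0.11 ± 0.06 in H448L, and PER1, a clock gene, at 0.04 ± 0.06 and −0.07 ± 0.07, and none of these passed (edgeR adjusted p from 0.325 to 0.98). SGK1, a kinase that controls ion transport, stood at −0.20 ± 0.21 and −0.38 ± 0.26 at 2.05 to 3.93 CPM and did not pass. Its values hung on single libraries, at 0.25 and −0.07 without R227Q 1 and at −0.61 and −0.93 without WT 3. KLF9, a transcription factor, was lower in R227Q (−0.29 ± 0.10, edgeR adjusted p = 0.0342), but did not pass with any 1 of these left out: WT 1 (−0.30), WT 2 (−0.28), WT 3 (−0.34), R227Q 1 (−0.24) or R227Q 2 (−0.29). DESeq2 did not call it (−0.30, adjusted p = 0.219). It stood at −0.19 ± 0.12 in H448L (0.403).

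The members that rose in R227Q were DDIT4, MT2A and HSD11B2. DDIT4, an mTORC1 inhibitor that ATF4 also induces, was measured at 60.1 CPM in WT 1, 56.9 in WT 2 and 43.2 in WT 3. In R227Q 1 to 3 it stood at 89.3, 61.4 and 66.8 CPM, and in H448L 1 to 3 at 56.3, 56.9 and 52.9 CPM. Within each submission the variant libraries were the higher ones, although H448L and WT overlapped when submissions were pooled. DDIT4 rose by 0.58 ± 0.06 in R227Q and 0.35 ± 0.07 in H448L (edgeR adjusted p = 7.92e-09 and 0.00106), while fitting no submission term gave 0.41 and −0.01, which did not pass. DDIT4 shares 847 exon bases with its antisense gene. MT2A, a metallothionein, rose by 0.28 ± 0.04 in R227Q (1.28e-06) and stood at 0.12 ± 0.04 in H448L (0.0749), which passed without H448L 3 (0.13) and with limma-voom (0.12). Metallothionein genes are near-identical, so reads could be divided among them. HSD11B2, which inactivates cortisol, rose by 0.35 ± 0.08 in R227Q (0.00169), a call lost without R227Q 1 (0.28). NFKBIA, the NF-kappaB inhibitor, just missed the threshold in R227Q (−0.15 ± 0.05, 0.0501), crossed it without H448L 3 (−0.15, 0.0466), with limma-voom (−0.15) and with RLE factors (−0.16), and stood at −0.12 ± 0.07 in H448L.

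**Figure D4:**
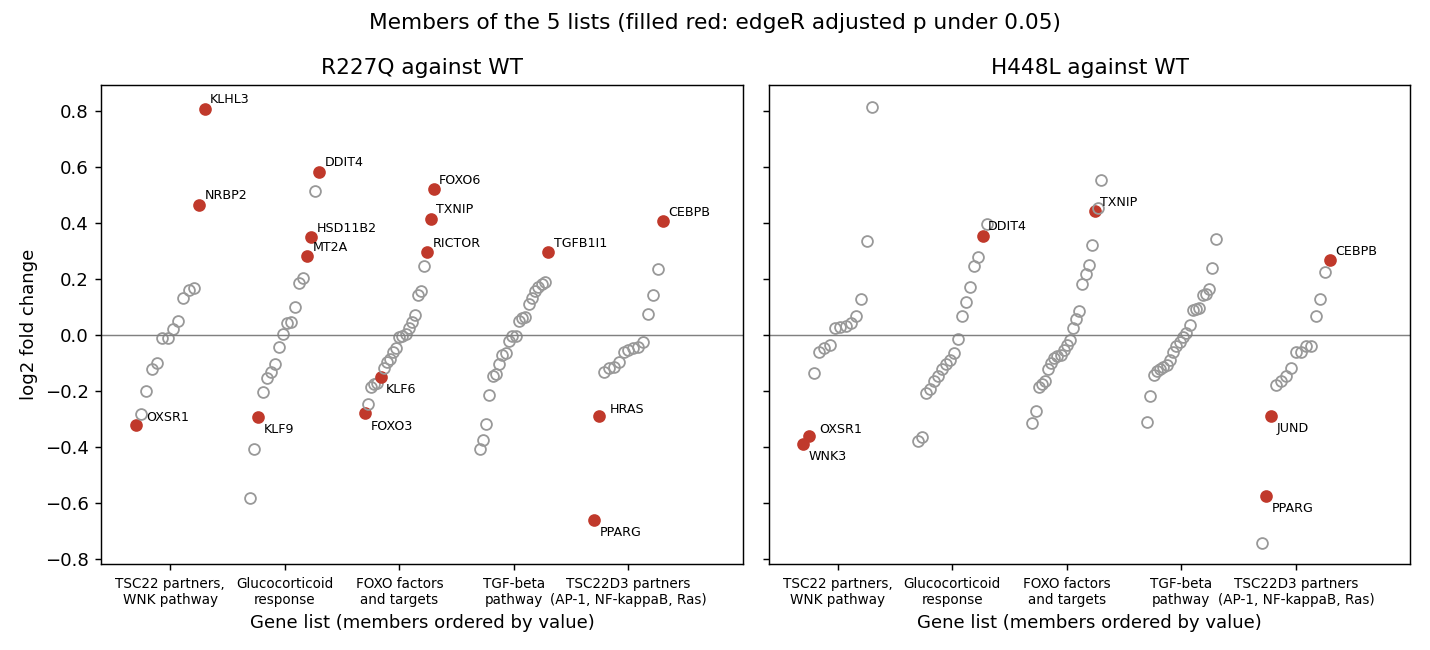
Log2 fold change (y axis) of the tested members of the 5 gene lists, 1 member of the last list left out (x axis, members ordered by value), in R227Q against WT (left) and H448L against WT (right); filled red points are called by edgeR and named, and open grey points did not pass. Called members lie on both sides of 0 in 4 of the 5 lists on the left, and PPARG is the lowest called gene in both panels.

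All 23 members of the FOXO list passed the filter on low counts. In R227Q, 3 rose, 2 fell and 18 did not pass (21.7% called against 17.4% of all genes, median −0.01), and in H448L 1 rose, 0 fell and 22 did not pass (4.35% against 7.97%, median −0.04). FOXO3, a transcription factor held in check by insulin signalling, was at 58.4, 63.3 and 70.9 CPM in WT 1 to 3 and at 51.5, 60.7 and 54.5 CPM in R227Q 1 to 3. The groups overlapped across submissions, but R227Q was lower within each. FOXO3 fell in R227Q (−0.28 ± 0.06, edgeR adjusted p = 0.000932) but did not pass with WT 3 left out (−0.25), and stood at −0.12 ± 0.07 in H448L (0.3). FOXO1 did not pass in either variant (−0.06 ± 0.07 and −0.10 ± 0.09, edgeR adjusted p = 0.613 and 0.545).

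TXNIP, a thioredoxin inhibitor that lowers glucose uptake, rose in both variants. WT libraries held 14.7 to 15.7 CPM, R227Q libraries 18.0 to 22.2 and H448L libraries 18.2 to 20.2, with no overlap between WT and either variant. Its log2 fold changes were 0.42 ± 0.09 and 0.44 ± 0.10 (edgeR adjusted p = 0.000845 and 0.00593), neither of which passed with R227Q 1 left out (0.31 and 0.36). DESeq2 did not call it in H448L (0.42, adjusted p = 0.0645). FOXO6, a family member of FOXO1, rose in R227Q (0.52 ± 0.17, edgeR adjusted p = 0.0295) at 2.62 to 7.25 CPM in these 2 groups. It did not pass with WT 1 (0.48), WT 2 (0.53), WT 3 (0.57), R227Q 1 (0.39) or R227Q 2 (0.49) left out, nor by DESeq2 (0.50). RICTOR, a subunit of mTORC2 (0.29 ± 0.10, 0.0465), and KLF6, a transcription factor (−0.15 ± 0.05, 0.0497), are named to complete the count and were chosen after their values were seen. RICTOR did not pass when any WT or R227Q library was left out (0.19 to 0.43). KLF6 did not pass when any of those 6 libraries, H448L 1 or H448L 2 was left out (−0.15 each). CDKN1B, a cell-cycle inhibitor, and CAT, catalase, had the next smallest p in H448L and did not pass (−0.19 ± 0.07 and −0.18 ± 0.06, edgeR adjusted p = 0.0803 and 0.0935). CDKN1B stood at −0.12 ± 0.06 in R227Q, where it passed without R227Q 3 (−0.17).

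TGF-beta ligands, receptors, SMADs and response genes, which relate to TSC22D1, showed few calls. Of 23 members, 22 passed the filter on low counts. In R227Q, 1 rose, 0 fell and 21 did not pass (4.55% called against 17.4% of all genes), and 7 were below an unadjusted p of 0.05. In H448L, 0 of 22 passed by edgeR, against 7.97% of all genes, with 3 below an unadjusted p of 0.05 and 0 called by DESeq2 or limma-voom. The medians were −0.00 and −0.02. TGFB1I1, a focal adhesion protein, rose by 0.29 ± 0.10 in R227Q (edgeR adjusted p = 0.0377), with 0.07 within 4LJFHN, and did not pass with R227Q 1 (0.07) or WT 1 (0.21) left out, nor by DESeq2 (0.28). The ligand TGFB1 stood at 0.06 ± 0.05 and 0.14 ± 0.06 in R227Q and H448L, and its receptor TGFBR1 at −0.10 ± 0.07 and −0.11 ± 0.08. The second receptor TGFBR2 stood at −0.32 ± 0.12 and −0.31 ± 0.14, and in R227Q it passed without WT 2 (−0.37) or R227Q 3 (−0.39). SMAD4, the shared mediator, stood at 0.19 ± 0.07 and 0.17 ± 0.08, and in R227Q it passed without R227Q 3 (0.21) or H448L 3 (0.19), with upper-quartile factors (0.21), with limma-voom (0.19) and with a filter at a mean of 10 counts (0.19). Both SMAD4 values were 0.09 without R227Q 1, and 0.27 and 0.28 without WT 3.

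Proteins that TSC22D3 binds or restrains made up the last list, and all 16 passed the filter on low counts. In R227Q, 1 rose, 3 fell and 12 did not pass (25% called against 17.4% of all genes, median −0.06), and in H448L 1 rose, 2 fell and 13 did not pass (18.8% against 7.97%, median −0.09). PPARG, a nuclear receptor of lipid metabolism, was measured at 32.9 CPM in WT 1, 31.8 in WT 2 and 20.7 in WT 3. The R227Q libraries 1 to 3 held 21.0, 11.8 and 13.7 CPM, and the H448L libraries 1 to 3 13.5, 12.3 and 15.9 CPM. It was higher in SDKYMR than in 4LJFHN, and below WT in the variants within each submission. The log2 values of PPARG were −0.66 ± 0.09 in R227Q and −0.58 ± 0.11 in H448L (edgeR adjusted p = 2.01e-06 and 0.00105), the latter not passing with WT 3 left out (−0.53).

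CEBPB, a bZIP transcription factor, rose in both variants. It was at 68.8, 63.2 and 81.3 CPM in WT 1 to 3, and every R227Q (88.1 to 108.8 CPM) and H448L library (94.9 to 104.8 CPM) was above them. Its log2 fold changes were 0.41 ± 0.05 and 0.27 ± 0.06 (edgeR adjusted p = 1.7e-06 and 0.00493), and the H448L value did not pass with WT 3 left out (0.27). HRAS, a GTPase of the Ras pathway that was chosen after its values were seen, fell in R227Q (−0.29 ± 0.07, edgeR adjusted p = 0.00201) but did not pass with R227Q 1 left out (−0.28). In H448L it stood at −0.15 ± 0.08 and did not pass. JUND, an AP-1 subunit, fell in H448L (−0.29 ± 0.05, edgeR adjusted p = 8.76e-05), and at −0.04 ± 0.04 did not pass in R227Q. Its H448L libraries (250.5 to 265.8 CPM) lay within the WT range (219.8 to 313.1 CPM), so the fall shows where submission is taken into account. Without the submission term the H448L value of JUND was −0.01. JUN (−0.13 ± 0.12 and −0.17 ± 0.14) and the NF-kappaB subunit RELA (0.07 ± 0.07 and −0.06 ± 0.08) did not pass in either variant. Without WT 3, JUN stood at −0.02 and −0.01 and RELA at −0.02 and −0.18, and without R227Q 1 JUN stood at −0.26 and −0.25 and RELA at 0.15 and −0.01.

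The genes whose levels followed TSC22D3 most closely were found by Pearson correlation over the 9 libraries, on log2 CPM with submission means removed and groups kept, among 11130 named genes of at least 5 CPM. The 5 highest were RDM1, a RAD52-like RNA-binding protein (r = 0.99, Spearman's rho = 0.97), MT1M, a metallothionein (0.98 and 0.93), PPP1R10, a regulator of protein phosphatase 1 (0.98 and 0.95), ZSWIM7, a recombination protein (0.97 and 0.98), and SHMT2, mitochondrial serine hydroxymethyltransferase (0.97 and 0.92). RDM1, for example, averaged 11.2 CPM in WT, 15.0 in R227Q and 12.2 in H448L. The 5 lowest were EIF5, a translation initiation factor (−0.99 and −0.97), the pseudogenes HMGB1P5 (−0.99 and −0.97) and HMGB1P6 (−0.98 and −0.97), SRSF5, a splicing factor (−0.99 and −0.97), and AP3D1, a subunit of a vesicle adaptor (−0.98 and −0.88). Without R227Q 2 and R227Q 3, the libraries farthest from the median of TSC22D3, r stayed between 0.94 and 0.98 for the former and between −0.99 and −0.96 for the latter. With group means removed as well, r was 0.62 to 0.80 for the former and −0.97 to −0.80 for the latter. Before submission means were removed, HMGB1P5, HMGB1P6 and AP3D1 were on average highest in H448L, whereas EIF5 and SRSF5 were highest in WT. HMGB1P5, for example, averaged 38.6 CPM in WT, 34.0 in R227Q and 48.3 in H448L. The 9 libraries share their groups, and the genes were picked as extremes of many, so the correlations describe these libraries and carry no p. MT1M and the HMGB1 pseudogenes have near-identical copies, so their counts are uncertain. Over the same libraries the correlation of TSC22D3 with TSC22D2 was −0.78 (rho −0.85), with TSC22D1 −0.57 (rho −0.60) and with TSC22D4 −0.01 (rho 0.30).

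**Figure D5:**
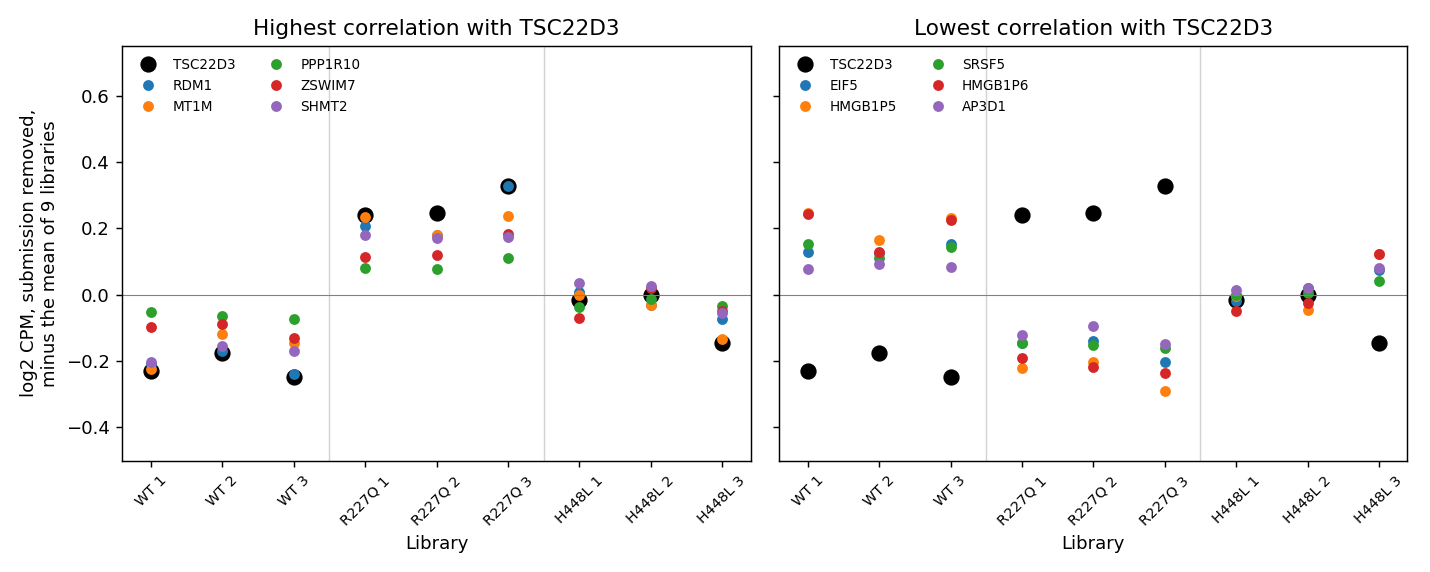
Log2 CPM with submission means removed, minus the mean over the 9 libraries (y axis), in each library (x axis) for TSC22D3 (black) and the 5 genes with the highest (left) or lowest (right) correlation with it. TSC22D3 is low in the WT, high in the R227Q and intermediate in the H448L libraries, and by choice the genes on the left run with it and those on the right against it.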

How the data were processed

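Per the labels' protocols, a commercial service took in lysates, selected poly-A RNA, made and tagmented double-stranded cDNA and amplified it for Illumina sequencing. The submitters' processing notes name GRCh38 as the build. Aligner, counter and strand use: not given in the sources used here. The authors deposited estimated counts per gene and CPM, per the file headers, 1 table for each submission, CPM being the count per 1000000 of the library's total. Each table had 78986 entries, of which 92 ERCC controls were left out.

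Estimated counts were rounded, filtered with filterByExpr, scaled with TMM and fitted on groups plus submission (5 residual degrees of freedom). The test was edgeR's quasi-likelihood test, two-sided, with Benjamini-Hochberg adjustment over 16908 genes and a threshold of 0.05. Standard errors were derived from the F statistic, and log2 CPM used a prior count of 2. R 4.3.3, edgeR 4.0.16, limma 3.58.1, DESeq2 1.42.0 and GENCODE 29 gene models were used, and the fit was tested on simulated data. The family members and gene lists were chosen with earlier results of these data known. Genes named in the text are the family, in each list the 3 members of smallest p in each variant plus a fixed set of well-known members, and the 5 genes most and 5 least correlated with TSC22D3; any other name completes a count. One member of the list of TSC22D3 partners is counted there but not reported here. The settings varied were the tool (DESeq2, limma-voom), the scaling (RLE, upper quartile), the filter, the submission term, the use of 4LJFHN alone, a replicate block and the leaving out of each library.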

Additional observations from a re-analysis of the deposited data

Results flagged for a closer look

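Among the named genes outside the family, 2 were singled out because the effects of R227Q and H448L against WT differed by the edgeR test of H448L against R227Q, JUND and MT2A. JUND was lower in H448L than in R227Q (−0.25 on the log2 scale, edgeR adjusted p = 0.00223), and −0.25 within 4LJFHN. JUND did not pass without R227Q 3 (−0.23, 0.109) or without the submission term (−0.11, 0.894). MT2A was also lower (−0.16, edgeR adjusted p = 0.0401), and −0.15 within 4LJFHN. MT2A passed with H448L 1 left out (−0.18) but with none of the other 8 libraries left out (−0.19 to −0.15, 0.0514 to 0.419). It also did not pass with RLE factors (−0.16, 0.0525), within 4LJFHN alone (−0.15, 0.176) or without the submission term (−0.09, 0.888). With 3 libraries per group, single libraries were not screened as outliers.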

How the results depend on the processing

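TSC22D3 was chosen by its levels in these same libraries, so its values under other settings are a description. It kept its direction in every setting run and in all 3 comparisons. Its H448L value against WT was 0.27 without a submission term. Without that term, TSC22D1 in H448L against R227Q was −0.19, TSC22D2 in R227Q −0.59, and TSC22D4 −0.13 in R227Q, −0.27 in H448L and −0.14 between the variants, and DDIT4 in H448L was −0.01. TSC22D2 in R227Q did not pass within 4LJFHN alone (−0.28). TSC22D2 in H448L passed with limma-voom (−0.32), RLE factors (−0.33), no filter beyond a count (−0.34) and a mean of 10 counts (−0.32). Leaving out 1 library gave ranges, in R227Q, H448L and between the variants, of −0.22 to −0.16, −0.21 to −0.07 and −0.02 to 0.12 for TSC22D1, −0.67 to −0.28, −0.58 to −0.19 and 0.08 to 0.21 for TSC22D2, 0.44 to 0.54, 0.10 to 0.21 and −0.35 to −0.28 for TSC22D3, and 0.00 to 0.04, −0.04 to 0.14 and −0.06 to 0.11 for TSC22D4.

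Members called in R227Q and H448L without a submission term were 0 and 0 for the WNK, glucocorticoid and FOXO lists, 0 in R227Q for the TGF-beta list, and 1 and 0 for the TSC22D3 partners. Within 4LJFHN alone they were 1 and 1 (WNK), 2 in R227Q (glucocorticoid), 1 and 0 (FOXO), 0 in R227Q (TGF-beta) and 2 in R227Q (TSC22D3 partners). DESeq2 called 1 and 1 (WNK), 2 and 0 (FOXO) and 0 in R227Q (TGF-beta). Calls over all 16908 genes fell as well, from 2944 and 1347 to 1557 and 694 with DESeq2. Without a submission term they fell to 312 and 147. Whether the lists lost more calls than other genes was not tested. Limma-voom called 6 and 2 (glucocorticoid) and 2 in R227Q (TGF-beta), where upper-quartile factors gave 3 and a mean of 10 counts 2. Not every list is given here for every setting. Leaving out 1 library gave 1 to 4 and 1 to 2 (WNK), 2 to 5 and 1 to 2 (glucocorticoid), 1 to 5 and 0 to 1 (FOXO), 0 to 3 and 0 to 0 (TGF-beta), and 2 to 4 and 1 to 3 (TSC22D3 partners).

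Over all genes, 2944, 1347 and 35 were called in R227Q, H448L and between the variants. DESeq2 called 1557, 694 and 54, a fit without a submission term 312, 147 and 1, and 4LJFHN alone 1138 and 734. Testing every gene with a count gave 122 between the variants, and leaving out 1 library 1093 to 3262, 253 to 1378 and 4 to 91. Of the R227Q calls, 43.1% were higher in R227Q, against 54% with upper-quartile factors (1565 higher and 1335 lower) and 32.4% with DESeq2, and of the H448L calls 37.3%, against 23.1% with DESeq2. The cause of these changes was not tested. Fits of 4LJFHN alone and with 1 library left out also used fewer libraries.

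Of the 9 same-numbered pairs of libraries, 1 had deviations from the fit correlated above 0.1 (range −0.40 to 0.12), and 1 library correlated best with its own number. These values cannot show whether the replicate numbers pair the libraries, because the fit itself fixes some of the correlations. The deviations of WT 3 and R227Q 1, for example, correlated at 1. With a replicate block, 2669, 1055 and 31 genes were called, TSC22D2 in H448L was −0.41 and passed, and the block left 1 call in the WNK list in H448L, 3 and 0 in the FOXO list and 3 in R227Q in the TGF-beta list. Of the named genes, WNK3 (−0.41), TXNIP (0.40) and CEBPB (0.19) in H448L and FOXO6 (0.53), KLF9 (−0.26) and KLF6 (−0.16) in R227Q were no longer called with the block.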
